A study of Mus musculus with 18 samples.

Results

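The NF-kappaB subunits are the 5 related transcription factor genes Nfkb1, Nfkb2, Rel, Rela and Relb, and their accessible regions were followed across murine lymphomas and normal lymphocytes by ATAC-seq, an assay in which the Tn5 transposase cuts and tags open chromatin. All peaks of the count table that the deposited annotation assigned to one of the 5 symbols were taken, which gave 32 of 61224 peaks. Nfkb1 held 17 of these peaks, Rel 5, Nfkb2 4, and Rela and Relb 3 each. The genes were chosen by the accessibility values of a 3' UTR peak of Nfkb1, which had stood among the largest differences between lymphomas and NKT cells, and the other 31 peaks followed from their symbols. Every value of the members in that comparison is therefore a description and carries no p-value. At the 3' UTR peak itself the other comparisons with lymphomas or NKT cells reuse the values that chose it, so they are descriptions too, apart from NK against T. The other 31 peaks were tested in the other 5 comparisons.

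NF-kappaB proteins bind DNA as dimers. Rela, Rel and Relb carry a transactivation domain, whereas Nfkb1 and Nfkb2 encode long precursors that are processed into the DNA-binding subunits p50 and p52. In resting cells the dimers are held in the cytoplasm by proteins of the IkB family. The canonical route frees Rela and Rel dimers when the IKK complex marks IkB for destruction, and in T cells it is switched on by the antigen receptor. The non-canonical route, driven by the kinase Map3k14, processes the Nfkb2 precursor and releases Relb dimers.

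The lymphomas were 9 mPTCL, peripheral T-cell lymphomas sorted from the liver of CD3KO C57BL/6 mice that had received p53KO T cells. The 3 NK libraries came from wild-type CD27-negative, CD11b-positive spleen cells. The 3 NKT libraries were wild-type liver lymphocytes that bound CD3 antibody and an alpha-GalCer-loaded CD1d tetramer, although Sp stands in their titles. The 3 T libraries came from wild-type CD3-positive, Thy1-positive spleen cells. Per library, 10000 sorted cells were used. Neither the ages of the mice nor the markers of the lymphoma sort were stated in the labels. Genotype and sort differ together between the lymphomas and every normal group, and the tissue differs as well from NK and T cells, so these cannot be told apart. Whether the libraries within a group stem from different animals is not stated, so the p-values measure the spread between these libraries, which may be technical. Lymphomas are numbered in the order of the series, which has no other meaning.

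Depth, as total counts in peaks, was 670358 to 4844441 for lymphomas, 417107 to 596601 in NK, 1433904 to 9097014 in NKT and 979441 to 2358023 in T libraries. Levels are CPM, the counts divided by a TMM-scaled library size, and all peaks are 500 bases wide, so levels of single peaks are comparable per length. A count of 3, taken as the floor, corresponded to 0.556 to 4.18 CPM in lymphomas, 4.76 to 6.32 CPM in NK, 0.411 to 2.40 CPM in NKT and 1.40 to 3.20 CPM in T libraries, so weak peaks were least well measured in NK cells. Floors cover counting error only, since amplified reads that carry no molecular identifier cannot be counted as separate molecules. As a check of the labels, the gene-level signal of the T-cell marker Cd3e was 16.3 to 44.8 CPM in lymphomas, 0 to 8.20 CPM in NK, 52.9 to 68.0 CPM in NKT and 27.5 to 45.5 CPM in T libraries, and it was 0 in 1 NK library. The NK receptor gene Ncr1 had 0 to 24.1 CPM in lymphomas, 12.3 to 38.8 CPM in NK, 0 to 0.933 CPM in NKT and 0 to 5.26 CPM in T libraries. Both genes come from longer lists, in which some markers went the other way. The T-cell markers Cd247 and Lef1 averaged 133 and 377 CPM in NK cells, beside 109 and 276 CPM in T cells. Of the NK-cell markers, Prf1 averaged 64.0 CPM in NK and 85.1 CPM in NKT cells, and Eomes 26.9 CPM in NK and 27.9 CPM in T cells. Zbtb16, which encodes the transcription factor PLZF of NKT cells, averaged 11.3 CPM in lymphomas, 68.2 CPM in NK, 58.1 CPM in NKT and 15 CPM in T libraries, so it set NKT cells apart from T cells but not from NK cells.

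Among the 32 peaks, the promoter of Relb was the most accessible, with a mean of 131 CPM over the 18 libraries, followed by a promoter peak of Rel at 58.1 CPM. The heat map of the 32 peaks shows that at least 1 promoter peak of each gene was open in every group, while most of the other Nfkb1 peaks were weak. The largest fitted differences between groups were those of Nfkb1 peaks. In bulk libraries of this kind, fewer cells with an open site and a less open site in every cell cannot be told apart.

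**Figure D1:**
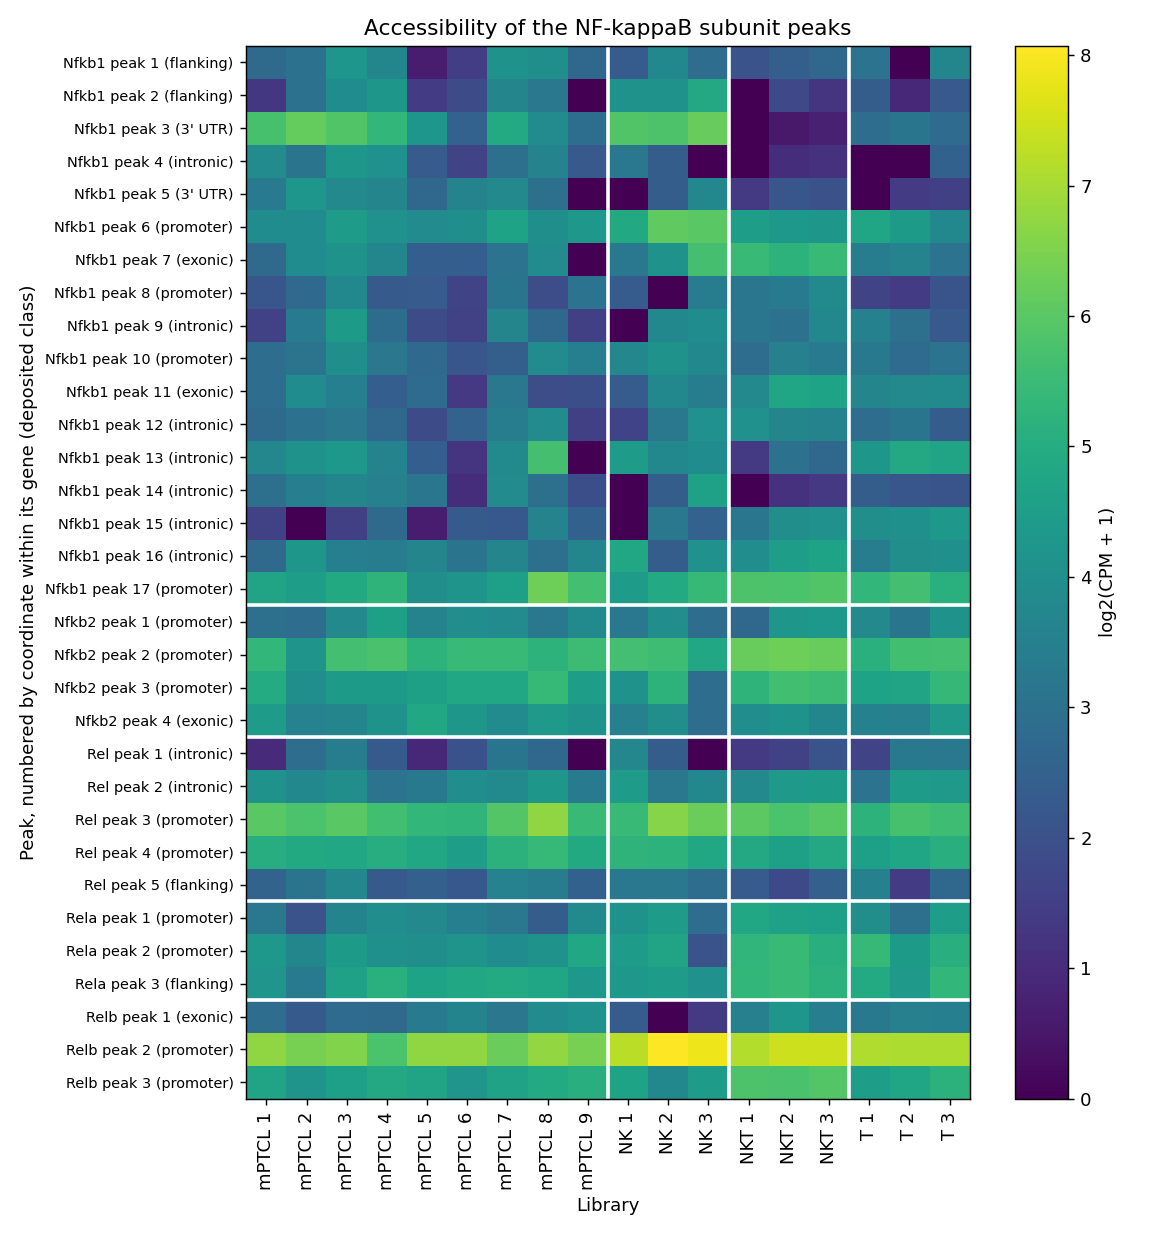
Accessibility of the 32 NF-kappaB subunit peaks (rows, numbered by coordinate within each gene, with the deposited class) in the 18 libraries (columns: 9 mPTCL, then 3 NK, 3 NKT and 3 T), as log2 CPM on a colour scale. The Relb promoter row is the brightest in all groups, and Nfkb1 peak 3, in the 3' UTR, is bright in NK libraries and in most lymphomas and dark in NKT libraries.

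Nfkb1, on mouse chromosome 3 (mm10), spans 135584655 to 135691969 in RefSeq. Its peaks are numbered here from the lower coordinate, where the 3' UTR lies, to peak 17 at the promoter (135691296 to 135691796). Peak 3, at 135585291 to 135585791, is the 3' UTR peak, and it starts 636 bases inside the lower end of the gene. Its level was 4.80 CPM in the lowest lymphoma, 29.8 CPM at the median and 70.2 CPM in the highest. It was 58.1, 54.8 and 73.0 CPM in the NK libraries, 0, 0.454 and 0.685 CPM in the NKT libraries, and 6.39, 7.79 and 6.08 CPM in the T libraries. The peak was thus strong in NK cells, weak in T cells and at or near the floor in NKT cells, and the lymphomas spread from the T range up into the NK range. Over each group the counts behind these levels were 797 in lymphomas, 100 in NK, 8 in NKT and 28 in T libraries.

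The 3' UTR peak averaged 61.9 ± 9.69 CPM in NK and 6.75 ± 0.911 CPM in T cells (SD, n = 3 each), a log2 fold change of 3.21 ± 0.69 (SE; edgeR adjusted p = 0.00628). NK against T is the one test of this peak that shares no library with the comparison in which it was noticed. As a description, lymphomas averaged 32.5 ± 23.6 CPM (SD, n = 9), a log2 fold change of 2.29 ± 0.60 over T cells. In 7 of 9 lymphomas the level lay above the highest T library, while lymphoma 9 at 6.54 CPM lay within the T range and lymphoma 6 at 4.80 CPM below it. Compared with NK cells the lymphomas overlapped at this peak, with a log2 fold change of -0.92 ± 0.47. NKT cells averaged 0.380 ± 0.349 CPM (SD, n = 3), which gave a log2 fold change of 6.79 ± 0.83 for NK over NKT cells and of -3.59 ± 0.90 for NKT over T cells, with no count at all in 1 NKT library. The fitted log2 fold change of lymphomas over NKT cells was 5.87 ± 0.77. These 3 values are descriptions as well. The NK and T difference stayed past the threshold in every alternative run and without any single library.

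The 9 lymphomas differed among themselves at the 3' UTR peak by more than the libraries of any normal group. Their levels, from lymphoma 1 to 9, were 52.0, 70.2, 57.3, 39.7, 18.1, 4.80, 29.8, 13.9 and 6.54 CPM. The promoter, peak 17, had another order, with 25, 21.7, 29.2, 37.0, 14.9, 17.2, 22.6, 76.7 and 49.5 CPM in the same lymphomas, so the 2 with the most open promoter, lymphomas 8 and 9, were among the 3 lowest at the 3' UTR. The ratio of 3' UTR to promoter counts was 0.132 in the lowest lymphoma, 1.21 at the median and 3.2 in the highest. In NK libraries it was 2.80, 1.86 and 1.77, in NKT libraries 0, 0.00836 and 0.0118, and in T libraries 0.162, 0.158 and 0.178. The ratio was at least 1.07 in 6 lymphomas and 0.278 in lymphoma 6, all above every T library. Lymphoma 8, at 0.182 from 10 and 55 counts, was close to the highest T library, at 0.178 from 13 and 73 counts. Lymphoma 9, at 0.132 from 7 and 53 counts, lay below every T library. This ratio does not depend on how libraries are scaled.

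Values that moved with the 3' UTR peak are given beside it, and their part in it was not tested. Lymphoma 2, with the highest level, also had the largest share of its counts on chromosome 3, at 1.33 times the mean of the normal libraries, and lymphoma 6, with the lowest level, had the smallest share at 0.812 times. The lymphomas between them did not follow that order, since lymphoma 5 had 1.22 times with 18.1 CPM, lymphoma 9 had 1.08 times with 6.54 CPM and lymphoma 4 had 0.900 times with 39.7 CPM. When the scaling was done within each chromosome, the log2 fold change of lymphomas over T cells was 2.18 ± 0.56, beside 2.29 without it. Of the 9 listed NK-cell markers 8 had peaks, and their summed signal was 257 to 420.0 CPM in lymphomas, 297 to 373 CPM in NK, 139 to 173 CPM in NKT and 155 to 168 CPM in T libraries. The 3 measured of 7 B-cell markers summed to 85.1 to 172 CPM in lymphomas, 83.8 to 152 CPM in NK, 37.6 to 38.3 CPM in NKT and 57.8 to 68.8 CPM in T libraries. The 5 measured of 10 myeloid and Kupffer-cell markers summed to 97.2 to 145 CPM, 112 to 164 CPM, 53.4 to 62.7 CPM and 63.3 to 72.2 CPM in those groups. Of the other lists, 2 of 6 hepatocyte markers summed to 29.2 to 78.5, 19.4 to 53.8, 3.96 to 13.9 and 11.8 to 20.7 CPM in the same order of groups, and 5 of 8 endothelial and stromal markers to 142 to 238, 136 to 261, 99.0 to 116 and 140.3 to 180.04 CPM. All 10 T-cell markers summed to 780.1 to 1636, 904 to 1105, 1538 to 1601 and 1243 to 1446 CPM, and all 8 NKT-cell markers to 366 to 481, 425 to 491, 1073 to 1158 and 504 to 544 CPM. The NK-cell, B-cell and myeloid sums were each higher in every lymphoma and NK library than in any NKT or T library.

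A second 3' UTR peak, Nfkb1 peak 5 (135590568 to 135591068), was weak everywhere. Its level in lymphomas was 0 CPM at the lowest, 11.1 CPM at the median and 17.9 CPM at the highest, against 0, 1.73 and 1.87 CPM in T libraries. It rose in lymphomas over T cells by 2.85 ± 0.85 on the log2 scale (edgeR adjusted p = 0.0172), with 8 of 9 lymphomas above the highest T library and lymphoma 9 without a count. The call was lost when any 1 of the 3 T libraries was left out (edgeR adjusted p between 0.0501 and 0.0759). NK libraries had 0, 4.22 and 12.7 CPM and NKT libraries 1.60, 3.48 and 3.01 CPM, and no test between other groups was passed at this peak.

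An intronic site close to the promoter moved the other way. Nfkb1 peak 15 (135689108 to 135689608) had 0 CPM in the lowest lymphoma, 3.71 CPM at the median and 11.2 CPM in the highest, against 14.9, 15.6 and 18.7 CPM in T libraries. All 9 lymphomas lay below all 3 T libraries, and the level fell by 2.29 on the log2 scale (SE 0.58, edgeR adjusted p = 0.00526), in all alternatives and without any single library. NK libraries had 0, 8.43 and 4.76 CPM and NKT libraries 7.99, 15 and 15.9 CPM. The promoter itself, peak 17, averaged 32.6 ± 19.6 CPM in lymphomas and 41.0 ± 7.72 CPM in T cells (SD, n = 9 and 3), and its log2 fold change of -0.40 ± 0.34 did not pass the threshold (edgeR adjusted p = 0.419).

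Peaks 6 and 7 lie in the lower part of the gene. Peak 6 (135594282 to 135594782, annotated as a promoter) stood out in NK cells, with 29.0, 67.5 and 63.5 CPM, while NKT libraries had 21.6, 18.6 and 18.5 CPM and T libraries 25.6, 19.9 and 12.6 CPM. Lymphomas had 13.8 CPM at the lowest, 15.3 CPM at the median and 24.6 CPM at the highest, all below all 3 NK libraries (log2 fold change -1.65 ± 0.32, edgeR adjusted p = 0.00103). The level in NK cells was higher than in T cells by 1.5 ± 0.42 (edgeR adjusted p = 0.0321) and higher than in NKT cells by 1.46 ± 0.40 (edgeR adjusted p = 0.0130) on the log2 scale. Both of these normal comparisons missed the threshold without NK library 2 (1.30 and 1.26, edgeR adjusted p = 0.109 and 0.0561), the one with T cells also without NK library 3, T library 2 or T library 3, and the one with NKT cells also without NKT library 2, while the lymphoma comparison kept its call without any single library. Peak 7 (135602625 to 135603125, exonic) stood out in NKT cells, with 42.4, 36.5 and 43.0 CPM, against 9.59, 11.2 and 7.48 CPM in T libraries. That difference was 2.12 ± 0.63 on the log2 scale (edgeR adjusted p = 0.0401), and it missed the threshold without any 1 of the 6 NKT and T libraries or lymphoma 2 or 7, and under RLE scaling, library totals, a mean count of at least 20 and the smaller peak table.

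At peak 7 the lymphomas had 0 CPM at the lowest, 7.41 CPM at the median and 16.4 CPM at the highest, against 8.29, 16.9 and 50.8 CPM in NK libraries. The fold change over NK cells was -1.59 ± 0.52 on the log2 scale (edgeR adjusted p = 0.0463) and shrank to -0.49 without NK library 3 (edgeR adjusted p = 0.727). In all, 12 of 18 left-out libraries ended this call, as did scaling within chromosomes and a fit of the 2 groups alone. As a description, the 9 lymphomas all lay below the 3 NKT libraries at this exon, with a log2 fold change of -2.23.

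**Figure D2:**
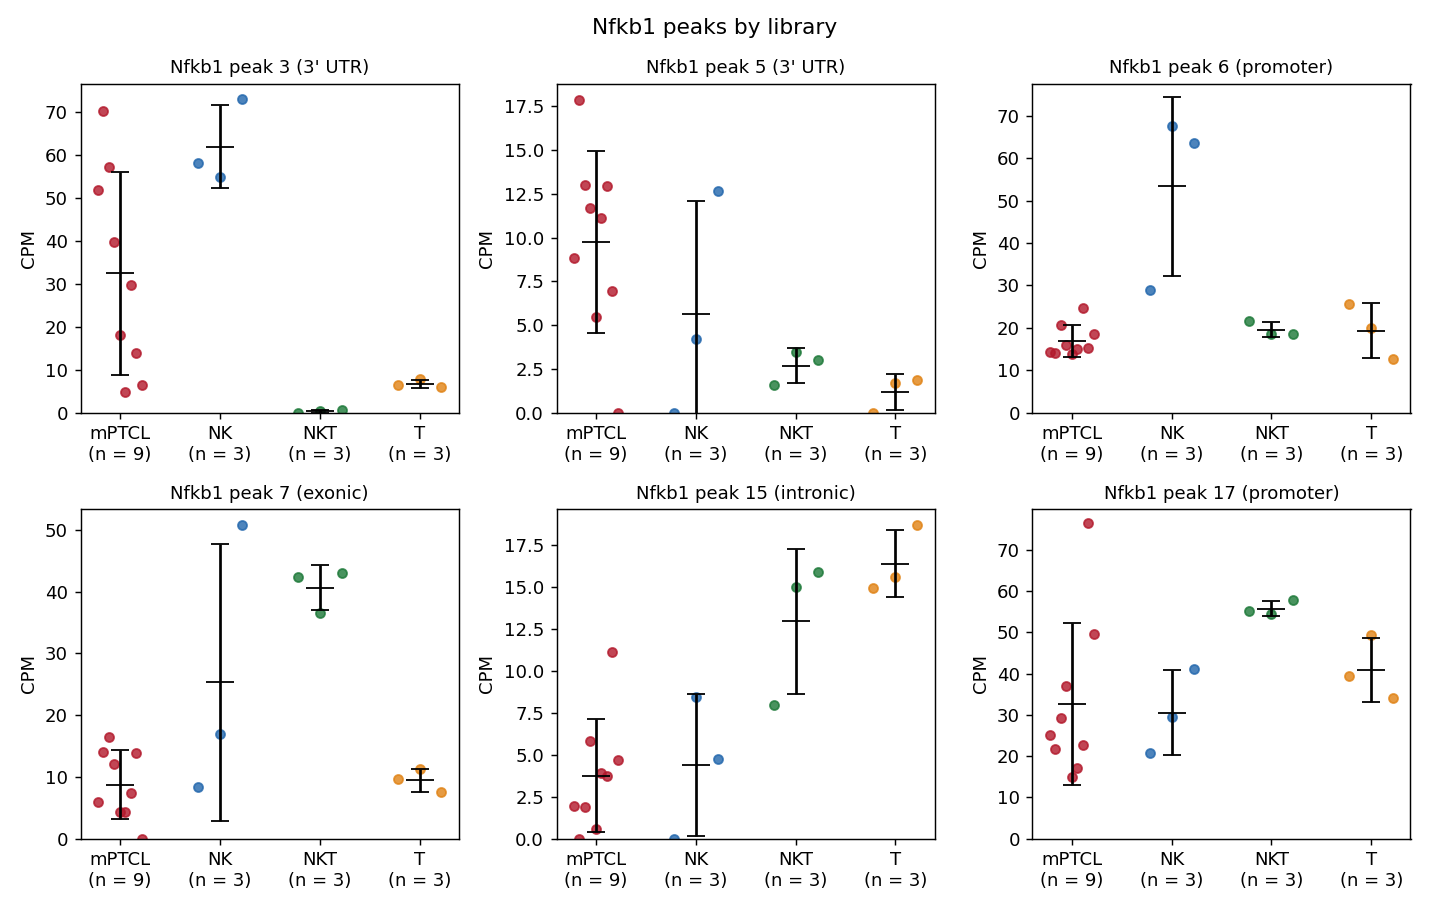
CPM of 6 Nfkb1 peaks in each library (points) with the group mean and SD (bars), for mPTCL (n = 9), NK, NKT and T (n = 3 each). Peak 3 is high in NK libraries, near 0 in NKT libraries and spread from 4.80 to 70.2 CPM in lymphomas, peak 15 is lower in all lymphomas than in all T libraries, and the promoter, peak 17, overlaps between lymphomas and T cells.

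The remaining 11 Nfkb1 peaks, other than the promoter, had group means between 0.764 and 24.0 CPM. Of these, peaks 2 (flanking the gene, at 135580465) and 14 (intronic) were higher in NK than in NKT cells. Peak 2 had 16.6, 16.9 and 28.6 CPM in NK libraries and 0, 2.42 and 1.37 CPM in NKT libraries (log2 fold change 3.72 ± 0.94, edgeR adjusted p = 0.00745). In lymphomas it ranged from 0 to 18.3 CPM with a median of 7.02 CPM. Peak 14 had 0, 4.22 and 23.8 CPM in NK libraries and 0, 1.21 and 1.51 CPM in NKT libraries (log2 fold change 3.08 ± 0.94, edgeR adjusted p = 0.0233), a difference that rested on NK library 3, since it was 1.02 without that library (edgeR adjusted p = 0.671), and it also missed the threshold without NKT library 1 or 2. An intronic site, peak 13, ran from 0 to 50.2 CPM in lymphomas with a median of 12.3 CPM, beside 20.7, 12.6 and 14.3 CPM in NK, 1.60, 7.12 and 5.62 CPM in NKT, and 18.1, 28.6 and 25.2 CPM in T libraries. All its NKT libraries lay below all its T libraries, but the log2 difference of -2.19 ± 0.77 missed the threshold (edgeR adjusted p = 0.0959). It passed in a fit of these 2 groups alone (-2.34, edgeR adjusted p = 3.03e-05) and in fits of the 9 normal libraries.

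Relb, on chromosome 7, encodes the partner of p52 in the non-canonical route. Its promoter, Relb peak 2 (19628523 to 19629023), had 54.1 CPM in the lowest lymphoma, 92.0 CPM at the median and 107 CPM in the highest. NK libraries had 149, 268 and 232 CPM, NKT libraries 139.9, 176 and 173 CPM, and T libraries 136, 134 and 134 CPM. Every lymphoma lay below every normal library at this promoter. The level was lower in lymphomas than in NK cells by a log2 fold change of -1.27 ± 0.20 (edgeR adjusted p = 0.000113), and this held in all alternatives and without any single library. Between normal cells the promoter did not pass for NK over T (0.68 ± 0.26, edgeR adjusted p = 0.110) or NK over NKT cells (0.41 ± 0.25, edgeR adjusted p = 0.263). Both differences passed in 9 alternatives, RLE scaling and library totals among them, with log2 fold changes of 0.80 to 1.15 over T and 0.66 to 1.05 over NKT cells.

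Compared with T cells, the same promoter was lower by -0.58 ± 0.20 on the log2 scale (edgeR adjusted p = 0.0380), with means of 90.1 ± 17.8 CPM in lymphomas and 135 ± 1.30 CPM in T cells (SD, n = 9 and 3). This call was not stable. It was lost in 6 of 8 alternatives, with values between -0.44 and -0.07, the last in the smaller peak table, and on leaving out any 1 of 13 libraries, all 3 T libraries among them, with values between -0.60 and -0.46. The share of counts on chromosome 7 was 0.737 to 1.01 times the normal mean in lymphomas, and with scaling within chromosomes the difference was -0.36 (edgeR adjusted p = 0.164).

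The other Relb sites showed different patterns. The exonic peak 1 had 3.83 to 15.9 CPM in lymphomas, 4.15, 0 and 1.59 CPM in NK, 10.4, 17.7 and 10.0 CPM in NKT, and 8.52, 10.4 and 10.3 CPM in T libraries. All 3 NK libraries were below all 3 NKT libraries (edgeR adjusted p = 0.0230), but they held 3 counts in all, so no fold is given. That call was lost in 6 alternatives and without NK library 2 or 3 or NKT library 2. The second promoter peak, Relb peak 3, had 17.2 to 32.7 CPM in lymphomas, 24.9, 12.6 and 20.6 CPM in NK, 55.2, 53.0 and 58.8 CPM in NKT, and 21.3, 26.0 and 35.5 CPM in T libraries. It was lower in NK than in NKT cells by -1.51 ± 0.38 (edgeR adjusted p = 0.00734), a call that 4 alternatives lost, with values between -1.09 and -0.87. By group means the neighbouring promoter peaks of Relb ranked the groups differently, with NK cells at the top of peak 2 and NKT cells at the top of peak 3. At peak 2 the NK and NKT libraries overlapped, and the lead of NK cells over NKT or T cells did not pass in the main fit.

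Nfkb2, on chromosome 19, encodes the precursor that the non-canonical route processes. It had 3 promoter peaks, of which the third, at 46305214, is also assigned to 4833438C02Rik, and an exonic peak. Its RefSeq promoter windows (GRCm38.p6, 250 bases before to 50 after each start) held matches to the kappaB consensus motif, a pattern of 10 bases searched on both strands. They are printed because 2 fall inside peak 2 and 2 inside peak 3, with the motif in capitals, 5' to 3' on the strand of the gene:
Nfkb2 site 1: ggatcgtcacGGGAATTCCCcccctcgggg
Nfkb2 site 2: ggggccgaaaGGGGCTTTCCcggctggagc
Nfkb2 site 3: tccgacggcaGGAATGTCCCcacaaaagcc
Nfkb2 site 4: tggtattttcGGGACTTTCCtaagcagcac
Sites 1 to 4 lie on chromosome 19 at 46304698 to 46304707, 46304726 to 46304735, 46305459 to 46305468 and 46305705 to 46305714. Site 1 reads as a match on both strands and overlaps a further match shifted by 1 base, and site 3 matches on the strand opposite the gene. Of the 32851 promoter windows in the RefSeq table, 1480 (4.51%) held the motif and 182 (0.554%) held it at least 2 times. A match is a description of the letters and not evidence of binding.

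The peak that holds sites 1 and 2, Nfkb2 peak 2 (starting at 46304471), was the strongest of the gene. It had 17.2 CPM in the lowest lymphoma, 42.1 CPM at the median and 53.0 CPM in the highest, with 49.8, 46.4 and 27.0 CPM in NK, 71.9, 77.1 and 71.9 CPM in NKT, and 34.1, 48.5 and 50 CPM in T libraries. At this peak the NKT libraries lay above every lymphoma, NK and T library. Neither NKT against T (edgeR adjusted p = 0.204) nor NK against NKT cells (edgeR adjusted p = 0.0729) passed the threshold there. Peak 3, with sites 3 and 4, had 15.3 to 41.8 CPM in lymphomas, 16.6, 35.8 and 6.35 CPM in NK, 36.8, 48.3 and 45.5 CPM in NKT, and 24.5, 25.1 and 40.2 CPM in T libraries. Peaks 1 and 4 had group means between 9.80 and 17.3 CPM. None of the 4 Nfkb2 peaks passed the threshold in any of the 5 tested comparisons, the largest tested difference being -1.21 on the log2 scale for NK over NKT cells at peak 3 (edgeR adjusted p = 0.0583). Without NK library 2 that difference was -1.98 and passed (edgeR adjusted p = 0.0144).

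Rel, on chromosome 11, encodes c-Rel, a subunit with a transactivation domain that is prominent in lymphocytes. Its main promoter peak, Rel peak 3 (starting at 23770559), had 38.0 CPM in the lowest lymphoma, 54.2 CPM at the median and 106 CPM in the highest, which was lymphoma 8. It had 43.5, 97.0 and 76.1 CPM in NK, 64.7, 53.8 and 62.5 CPM in NKT, and 36.2, 51.9 and 46.3 CPM in T libraries, and the groups overlapped except for NKT above T. The RefSeq promoter window held 1 kappaB motif with an overlapping match shifted by 1 base, at 23771052 to 23771061, across the upper end of this peak. It is printed for comparison with the Nfkb2 sites, 5' to 3' on the minus strand with the motif in capitals:
Rel site 1: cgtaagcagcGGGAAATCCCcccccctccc
The second promoter peak, Rel peak 4, had group means of 30.6, 33.4, 26.4 and 26.9 CPM in lymphomas, NK, NKT and T cells. None of the 5 Rel peaks passed the threshold in a tested comparison. Rel peak 3 did so in some alternatives. In the smaller peak table it was higher in lymphomas than in T cells (0.83, edgeR adjusted p = 0.0338, beside 0.32), and NK over T cells passed in that table, in a fit of the 2 groups alone and in the 9 normal libraries without the block (0.97 to 1.16). The share of counts on chromosome 11 was 1.15 to 1.67 times the normal mean in lymphomas, and with scaling within chromosomes Rel peak 3 was lower in lymphomas than in NK cells (-0.84 on the log2 scale, edgeR adjusted p = 0.0423), as was the sum of Rel (-0.88, edgeR adjusted p = 0.0037).

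Rela, on chromosome 19, encodes the subunit of the most common canonical dimer. Its window in RefSeq held no match to the motif letters. Rela peak 2, at the promoter, had 12.1 CPM in the lowest lymphoma, 16.7 CPM at the median and 27.1 CPM in the highest, with 20.7, 25.3 and 3.17 CPM in NK, 38.4, 42.1 and 32.5 CPM in NKT, and 41.5, 19.9 and 32.2 CPM in T libraries. Peaks 1 and 3, of which peak 3 flanks the gene and is shared with Sipa1, were likewise highest in NKT cells, with means of 24.5 and 39.1 CPM beside 9.57 and 23.3 CPM in lymphomas. All 3 Rela peaks were below every NKT library in all 9 lymphomas, with log2 fold changes of -1.31, -1.13 and -0.73 as a description. In that comparison 42.6% of all peaks were past the threshold, and the share of all peaks without overlap was not computed. None of the 3 Rela peaks passed the threshold in a tested comparison. Chromosome 19 took 0.609 to 1.02 times its normal share of counts in the lymphomas.

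Counted over the 32 peaks, 2 were higher and 2 lower in lymphomas than in T cells, which is 12.5% beside 19.7% of all 61220 tested peaks. The median log2 fold change of the 32 was -0.12, beside 0.26 over all peaks. In lymphomas against NK cells none was higher and 3 were lower, 9.38% of the members beside 9.79% of all peaks, with medians of -0.20 and 0.30. In NK against T cells 2 were higher and none lower (6.25% beside 4.8%), in NK against NKT cells 4 were higher and 2 lower (18.8% beside 17.1%), and in NKT against T cells 1 was higher and 1 lower (6.25% beside 5.23%). All these shares were near or below the share of all peaks, and each of these counts except that against NK cells includes the 3' UTR peak. For lymphomas against NKT cells, the comparison in which the 3' UTR peak was noticed, 5 peaks were past the threshold upwards and 12 downwards, 53.1% beside 42.6% of all peaks, from which nothing is read. Scaling by RLE in place of TMM moved the median of all peaks between lymphomas and T cells to 0.51 and that between lymphomas and NKT cells to 0.74. Under RLE or library totals the split in lymphomas against T cells was 3 higher and 1 lower, and scaling within chromosomes gave 2 higher and 1 lower. In NK against NKT cells the split was 5 higher and none lower under RLE and 5 higher and 1 lower with library totals. In NKT against T cells it was none higher and 1 lower under both.

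**Figure D3:**
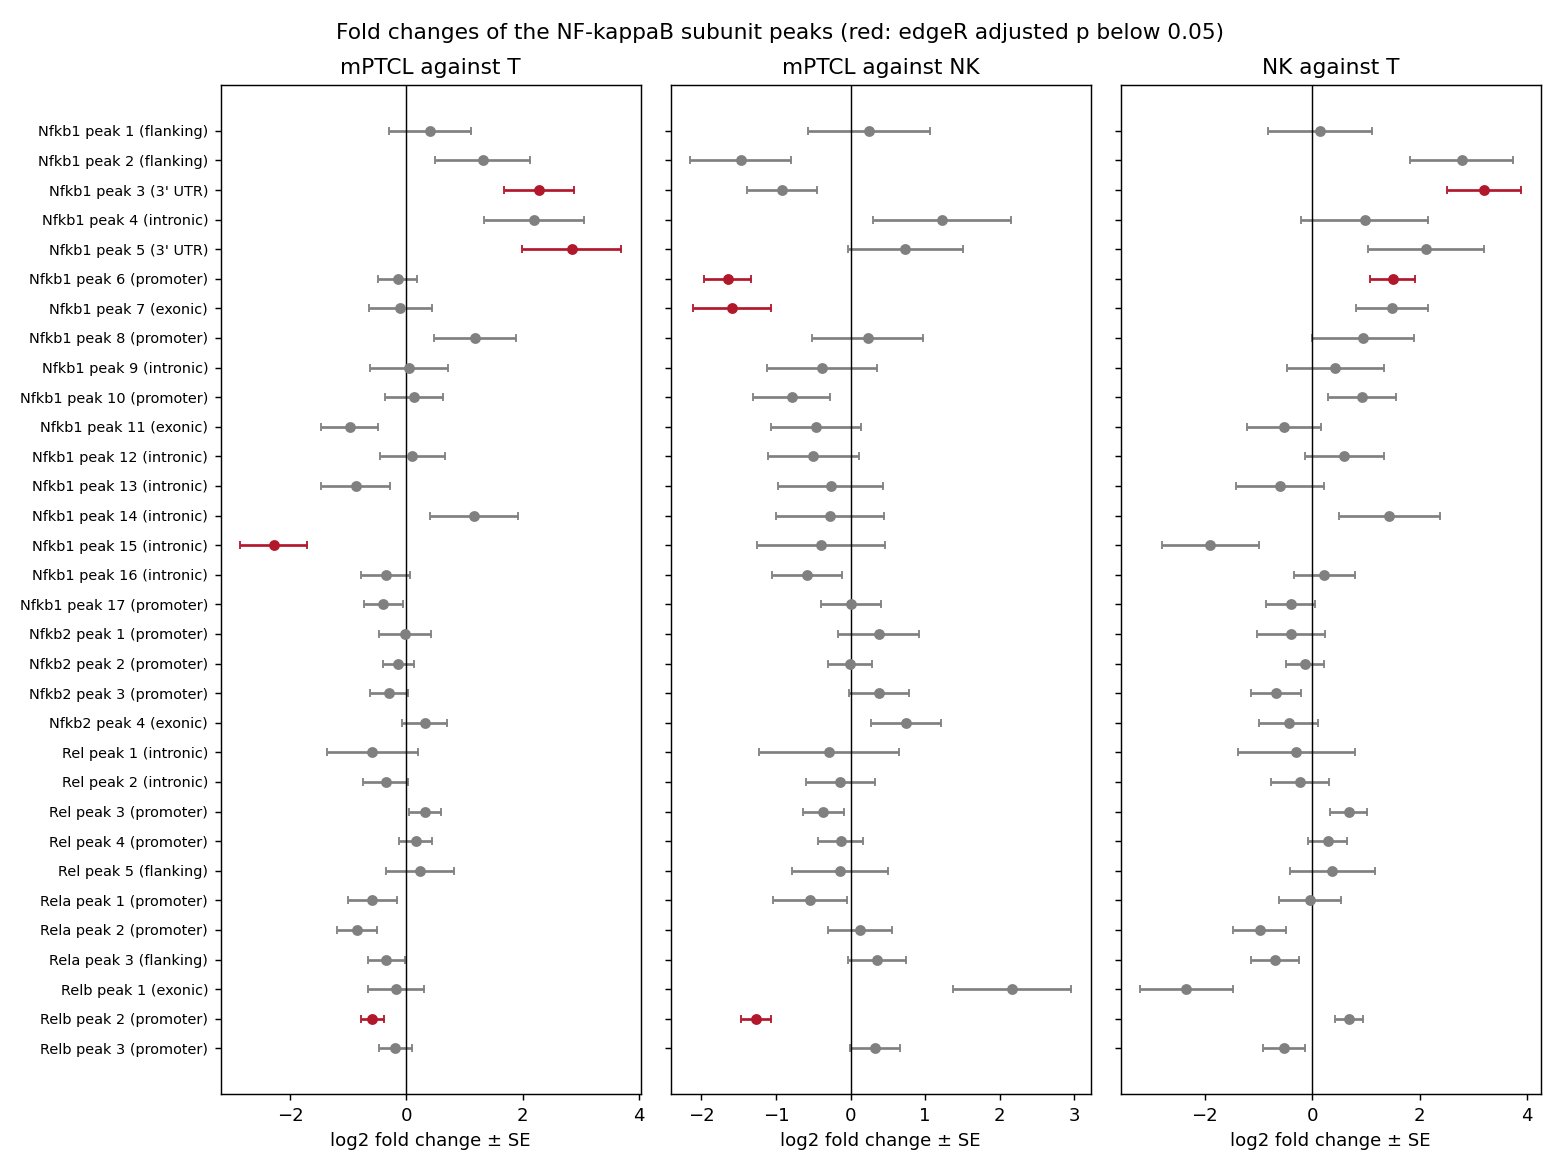
Fitted log2 fold changes with their SE (horizontal bars) for the 32 member peaks in lymphomas over T cells, lymphomas over NK cells and NK over T cells. Peaks past an edgeR adjusted p of 0.05 are in red, and the comparisons with NKT cells are not shown. Nfkb1 peak 3 lies far to the right in lymphomas over T cells and in NK over T cells, and the Relb promoter, peak 2, lies to the left in lymphomas over NK cells. The position and colour of Nfkb1 peak 3 in the lymphoma comparisons are descriptions and no test, since its lymphoma values helped to choose it.

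Summed over all peaks of a gene, the 5 subunits differed much less than the single peaks did. Levels of sums are not comparable between genes, since each gene has another number of peaks. Nfkb1 had 84.3 CPM in the lowest lymphoma, 223 CPM at the median and 270.2 CPM in the highest, with 213, 293 and 395 CPM in NK, 164, 177 and 189 CPM in NKT, and 152, 158 and 142 CPM in T libraries. This sum includes the 3' UTR peak, whose values in lymphomas and NKT cells chose the genes. Its comparisons with either group are therefore descriptions, and only NK against T is a test. All NK libraries were above all NKT and T libraries, and sums without the 3' UTR peak were not computed. The log2 fold change of 1.0 ± 0.35 for NK over T cells did not pass the threshold (edgeR adjusted p = 0.0921). It did pass with DESeq2 (1.08, DESeq2 adjusted p = 0.0400), in a fit of the 2 groups alone and in fits of the 9 normal libraries. None of the 5 genes passed in lymphomas against T cells, beside 30.9% of the 20326 genes tested, and none had an unadjusted p below 0.05 or a DESeq2 call. In the smaller peak table Rel passed (0.69, edgeR adjusted p = 0.0492). In the larger table the log2 fold changes of lymphomas over T cells were 0.34 ± 0.28 for Nfkb1, 0.14 ± 0.21 for Nfkb2, 0.37 ± 0.22 for Rel, -0.36 ± 0.25 for Rela and -0.26 ± 0.17 for Relb.

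Relb was the gene that differed at this level. It had 86.2 CPM in the lowest lymphoma, 123 CPM at the median and 147 CPM in the highest, against 176, 287 and 253 CPM in NK libraries, 169.6, 189 and 183 CPM in NKT libraries and 141, 142 and 145 CPM in T libraries. All lymphomas were below all NK libraries, with a log2 fold change of -1.0 ± 0.17 (edgeR adjusted p = 0.000178), beside 21.5% of genes called in that comparison. NK cells were higher than T cells by 0.74 ± 0.22 (edgeR adjusted p = 0.0411, beside 5.48% of genes called), a call lost without NK library 2 or 3, NKT library 2 or 3 or any T library. None of the 5 genes passed in NK against NKT cells (14.8% of genes called). There 3 had an unadjusted p below 0.05, Nfkb1 with its 3' UTR peak among them, and DESeq2 called 2. None passed in NKT against T cells (4.55% of genes called), by either tool or at an unadjusted p below 0.05. As a description, the fold changes of lymphomas over NKT cells were 0.11 for Nfkb1, -0.31 for Nfkb2, 0.32 for Rel, -0.70 for Rela and -0.60 for Relb, in a comparison that called 45.6% of genes.

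**Figure D4:**
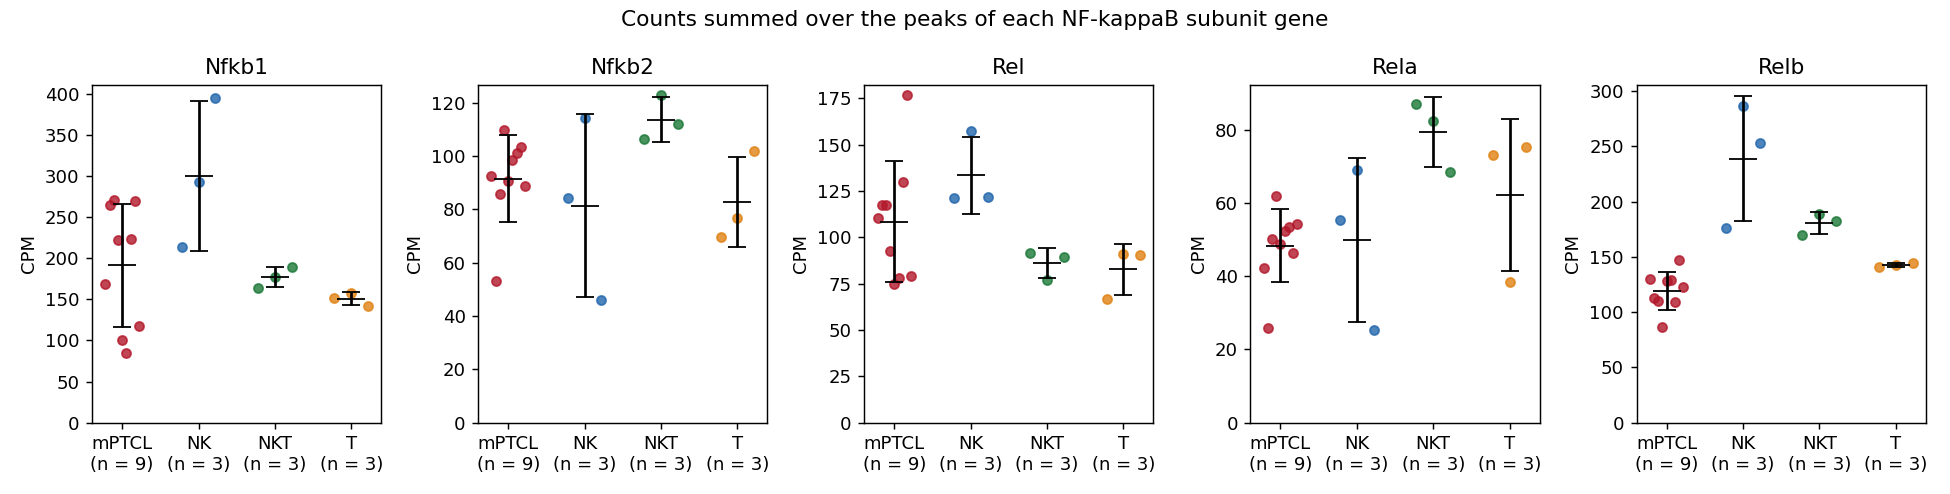
CPM of counts summed over the peaks of each NF-kappaB subunit gene in each library (points), with the group mean and SD (bars), for mPTCL (n = 9), NK, NKT and T (n = 3 each). Relb is lower in all lymphomas than in all NK and NKT libraries, and the lymphomas overlap with T libraries for each of the 5 genes.

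Over the 18 libraries, gene-level log2 CPM values of Nfkb1 and Rel went together (Pearson r = 0.76), as did those of Nfkb2 and Rela (r = 0.79), which both lie on chromosome 19. The other pairs had r between -0.36 and 0.33. These correlations are descriptions over libraries that share cell type and depth. By the same measure Cyth2 (r = 0.95) and Klf13 (r = 0.94), both on chromosome 7, were the genes most like Relb. Cdk6 (r = 0.83) was among the 3 genes most like Nfkb1, with Gm35808 (r = 0.86) and Gm43671 (r = 0.83), and Jdp2 (r = 0.84) among those most like Rel, with 1700034H15Rik (r = 0.84) and Gm27460 (r = 0.82). Nfkb2 was most like 4833438C02Rik (r = 0.85), which shares a peak with it, then Uap1l1 and AI662270 (r = 0.83 each). Rela was most like Cpne1, Gm28036 and Rbm12, which share 1 peak (r = 0.85).

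The peak most like the 3' UTR peak of Nfkb1 was an intergenic site on chromosome 5 at 120322923 to 120323423 (r = 0.94), with means of 21.2 CPM in lymphomas, 31.6 CPM in NK, 0.618 CPM in NKT and 3.51 CPM in T cells. It was followed by an exonic peak of Rbm46os on chromosome 3 (r = 0.93), an intronic peak of Spns2 on chromosome 11 (r = 0.92), a promoter peak of 4930594M22Rik on chromosome 14 (r = 0.92) and an intronic peak of Dagla on chromosome 19 (r = 0.91). All 5 were lowest in NKT cells, second lowest in T cells and highest in NK cells, as the 3' UTR peak was. They were picked for their likeness to it over the same libraries, so this order follows from the choice and is no separate result.

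The genes around the subunits were read from a list of 82 pathway genes, drawn up with results of these data known, of which 74 had a peak. Between lymphomas and T cells 15 were higher and 11 lower, 35.1% beside 30.9% of all genes. Between lymphomas and NK cells 10 were higher and 11 lower, 28.4% beside 21.5%. Median log2 fold changes of the 74 were -0.06 and 0.01, beside 0.12 and 0.13 over all genes. The chart of pathway genes by role shows genes on both sides of 0 in every list. The share of measured genes called in lymphomas against T cells was 33.3% of inhibitors, 25% of kinases, 26.7% of adaptors, 25% of feedback enzymes, 30% of receptors and 12.5% of ligands, near or below the share of all genes. Against NK cells it was 40% of receptors, 37.5% of kinases and 33.3% of adaptors, above the 21.5% of all genes. Feedback enzymes and ligands had 25% each and inhibitors 16.7%. The lists are short, with 6 to 15 measured genes each, so nothing is read from these shares.

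**Figure D5:**
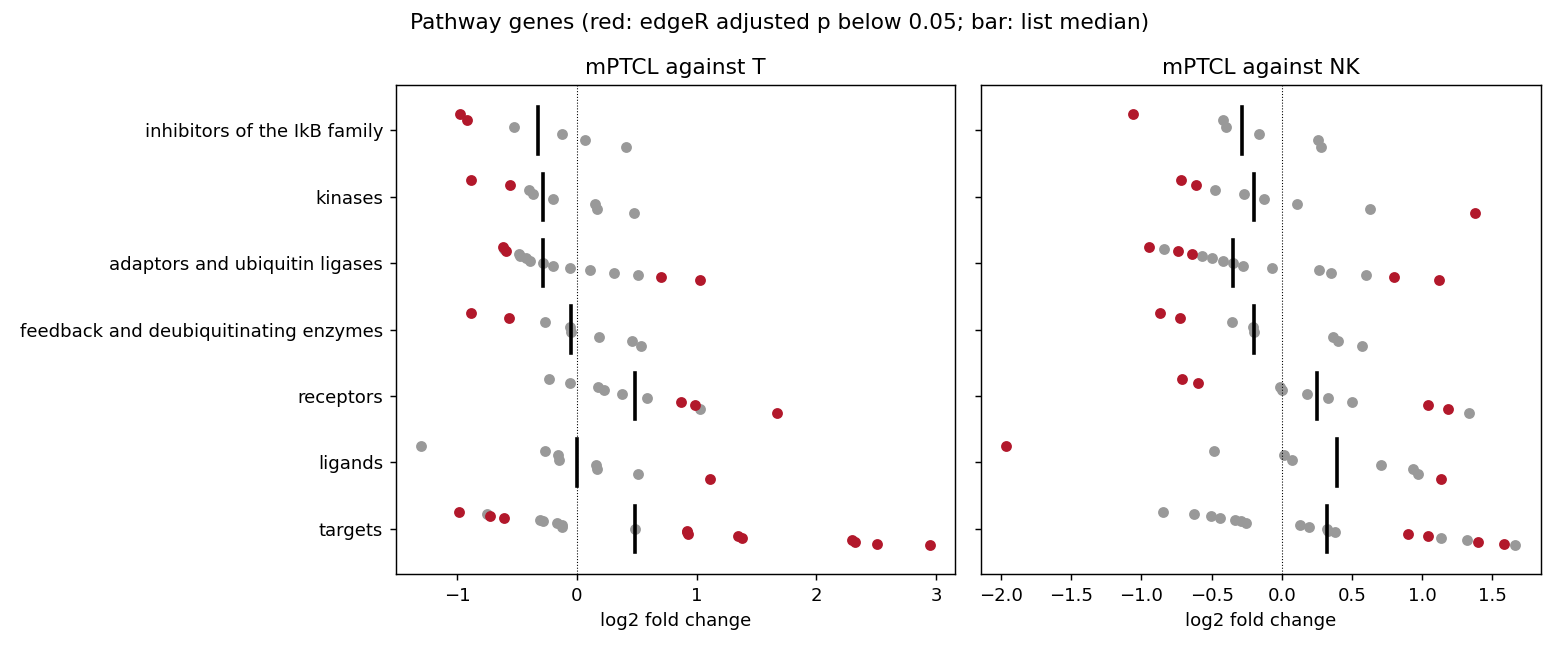
Gene-level log2 fold changes of the measured NF-kappaB pathway genes by role (rows), in lymphomas over T cells and lymphomas over NK cells, with genes past an edgeR adjusted p of 0.05 in red and the median of each list as a bar. Target genes reach the largest fold changes over T cells, and no inhibitor of the IkB family is red on the upper side.

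Of the 6 IkB-family inhibitors, 2 were lower and none higher in lymphomas than in T cells. Nfkbiz, an atypical nuclear IkB protein, averaged 67.9 ± 13.6 CPM in lymphomas and 133 ± 26.0 CPM in T cells, a log2 fold change of -0.98 ± 0.19 (edgeR adjusted p = 0.000427), and it was also lower than in NK cells (-1.06 ± 0.20, edgeR adjusted p = 0.000562). With scaling within chromosomes these were -0.51 over T (edgeR adjusted p = 0.0223) and -0.62 over NK cells (edgeR adjusted p = 0.0154). Nfkbid, another nuclear member, was lower than in T cells by -0.92 ± 0.24 (edgeR adjusted p = 0.00591), though not in the smaller peak table (-0.61). Nfkbia, which encodes the classical inhibitor IkB-alpha, had log2 fold changes of -0.12 ± 0.19 over T and 0.26 ± 0.21 over NK cells, neither past the threshold.

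Of the 8 measured kinases, 2 were lower in lymphomas than in T cells. They were Ripk1, a kinase of the TNF receptor complex (-0.89 ± 0.20, edgeR adjusted p = 0.00176), and Prkcq, the protein kinase C of the T-cell receptor route (-0.56 ± 0.17, edgeR adjusted p = 0.0165). Prkcq lost its call without T library 1 or 3, in the smaller peak table and with scaling within chromosomes. Against NK cells 1 kinase was higher, Map3k7 or TAK1 (1.38 ± 0.34, edgeR adjusted p = 0.00501), and 2 were lower, with Ripk1 at -0.72 ± 0.22 (edgeR adjusted p = 0.0227). Ripk1 lost both calls with scaling within chromosomes (-0.27 over T and -0.18 over NK cells), and the second also without NK library 1 or 3 and in a fit of the 2 groups alone. Map3k14 had log2 fold changes of 0.17 over T and 0.11 over NK cells and did not pass, but it was lower than in NK cells with scaling within chromosomes (-0.46, edgeR adjusted p = 0.0455).

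Among 15 adaptors and ubiquitin ligases, the lymphomas were higher at 2 and lower at 2 relative to T cells, and higher at 2 and lower at 3 relative to NK cells. Tab1, a partner of TAK1, was higher over T (1.03 ± 0.29, edgeR adjusted p = 0.00816) and over NK cells (1.12 ± 0.32, edgeR adjusted p = 0.0131), and Sharpin, of the linear ubiquitin ligase, over T cells (0.70 ± 0.23, edgeR adjusted p = 0.0210). Both lie on chromosome 15 and lost these calls with scaling within chromosomes, where Tab1 was at 0.14 and 0.36 and Sharpin at -0.15. The Tab1 calls were also lost without T library 1 or without NK library 1 or 3, and that of Sharpin without T library 1 or 2. Birc3, which encodes cIAP2, was lower than in NK cells (-0.95 ± 0.30, edgeR adjusted p = 0.0231), a call lost without NK library 1 or 3.

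Of the 8 feedback and deubiquitinating genes, 2 were lower in each comparison and none was higher. Tnfaip3, which encodes the A20 inhibitor, was lower than in T cells by -0.56 ± 0.19 (edgeR adjusted p = 0.0271), a call lost without any 1 of the T libraries, in the smaller peak table and with scaling within chromosomes. Tnip3 was lower than in T cells (-0.89 ± 0.24, edgeR adjusted p = 0.00662) and in NK cells (-0.87 ± 0.26, edgeR adjusted p = 0.0171). The first call was lost in the smaller peak table, the second without NK library 3 and with scaling within chromosomes. N4bp1, lower than in NK cells at -0.72 ± 0.23 (edgeR adjusted p = 0.0238), lost its call without any 1 of the NK libraries, in the smaller peak table and with scaling within chromosomes.

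Of the 10 measured receptors, 3 rose and none fell relative to T cells, and 2 rose and 2 fell relative to NK cells. Tnfrsf13c, the BAFF receptor gene, averaged 48.2 ± 17.2 CPM in lymphomas and 14.7 ± 2.60 CPM in T cells (log2 fold change 1.67 ± 0.33, edgeR adjusted p = 0.000554), and Il18r1, a chain of the interleukin-18 receptor, was higher by 0.99 ± 0.24 (edgeR adjusted p = 0.00286). With scaling within chromosomes Tnfrsf13c over T cells was 0.78 (edgeR adjusted p = 0.034). Tnfrsf13c and Cd40 are also B-cell genes, and the B-cell marker sum was 85.1 to 172 CPM in lymphomas, against 83.8 to 152 CPM in NK and 57.8 to 68.8 CPM in T libraries. The part of B cells in these values was not tested. Against NK cells Cd40 was higher by 1.18 ± 0.40 (edgeR adjusted p = 0.0350) and Tnfrsf13c by 1.04 ± 0.36 (edgeR adjusted p = 0.0372). Both of the NK calls were lost without NK library 2 or 3, that of Cd40 also without lymphoma 5 or 6, and that of Tnfrsf13c also without lymphoma 1 or 2, in the smaller peak table, in a fit of the 2 groups alone and with scaling within chromosomes (0.29). Of the 8 measured ligands, Tnfsf14 (LIGHT) was higher than in T cells (1.11 ± 0.38, edgeR adjusted p = 0.0297), a call lost without T library 2 (0.76), T library 3 or lymphoma 3 or 7, with scaling within chromosomes and in a fit of the 2 groups alone. Against NK cells Ltb, the lymphotoxin beta gene, was higher (1.13 ± 0.29, edgeR adjusted p = 0.00680) and Tnfsf4, the OX40 ligand gene, lower (-1.96 ± 0.59, edgeR adjusted p = 0.0190). The Ltb call was lost without NK library 3 and with scaling within chromosomes (0.76), and the Tnfsf4 call without NK library 2 or 3, with that scaling and in a fit of the 2 groups alone.

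Of the 19 measured targets, 9 were higher and 3 lower in lymphomas than in T cells, 63.2% of them called beside 30.9% of all genes, in a list drawn up with results of these data known. The largest fold changes were those of the chemokine genes Ccl3, at 44.5 ± 37.5 CPM in lymphomas and 5.16 ± 2.08 CPM in T cells (log2 fold change 2.95 ± 0.51, edgeR adjusted p = 0.000139), and Ccl5, at 162 ± 37.7 CPM and 27.4 ± 12.5 CPM (2.51 ± 0.28, edgeR adjusted p = 8.49e-07). Both kept these calls in all alternatives and without any single library, scaling within chromosomes included. They are also expressed by NK cells and cytotoxic T cells. Against NK cells 4 targets were higher and none lower, 21.1% of the measured targets beside 21.5% of all genes. The 4 included Myc (1.40 ± 0.25, edgeR adjusted p = 0.000263) and the interleukin-2 gene Il2 (1.58 ± 0.51, edgeR adjusted p = 0.0266). Myc was at 0.71 (edgeR adjusted p = 0.0622) with scaling within chromosomes, and Il2 lost its call in the smaller peak table, in a fit of the 2 groups alone and without NK library 1 or 2, at 1.04 without NK library 1 and 3.09 without NK library 3.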

How the data were processed

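The authors deposited whole-number read counts per peak for 18 ATAC-seq libraries, with the class and symbol of each peak. They also deposited log2 CPM values, which equal TMM-scaled values with a prior count of 2 recomputed from the counts (largest difference 0.0005). MACS2 2.1.2, bedtools, edgeR 3.24.3 and the mm10 build are named, per the submitters' processing notes. The aligner, duplicate removal and any Tn5 offset are not stated there, and they could change counts in repeats and at peak edges.

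The edgeR package (4.0.16, under R 4.3.3, with limma 3.58.1 and the data.table package at 1.17.8) gave all tests: filterByExpr, TMM and 1 quasi-likelihood fit over 18 libraries and 4 groups, with Benjamini-Hochberg adjustment over 61220 peaks or 20326 genes and a threshold of 0.05. The biological coefficient of variation was 0.431 for peaks and 0.297 for genes. Gene values sum all peaks of a symbol, and a peak with 2 symbols counts for both. SE is the log2 fold change divided by the square root of F. The scripts were tested on simulated data with known changes.

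Members, lists and tests were chosen with earlier results of these data known. Of the pathway lists, the 2 called genes with the largest change per list and comparison are named, and always Nfkbia, Tnfaip3 and Map3k14. Some genes that these rules name are not reported here. Likeness is Pearson's r of log2 CPM over 18 libraries, for the 3 genes or 5 peaks with the highest r. Between 51.2% and 80.3% of counts of at least 3 were even, so counts may come in pairs and no counting intervals are given. The closest libraries of a group (T 1 and T 2) had a chi-square of 2.24 for each degree of freedom. Counts that come in pairs would raise this value, so it does not show a difference beyond sampling noise. No libraries were merged. Alternatives were RLE scaling, library totals, TMM within chromosomes, no filter, a mean count of at least 20, DESeq2 1.42.0, the smaller peak table (27727 peaks, 19 of them members), fits of 2 groups or of the normal libraries, and leaving out each library. Promoter letters are from RefSeq (GRCm38.p6), which held 3 of the 5 members.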

Additional observations from a re-analysis of the deposited data

Results flagged for a closer look

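Among 37 values (32 peaks and 5 genes, log2 CPM), 7 had a lymphoma standing apart from the other 8 by Dixon's criterion. That is 18.9%, where chance flags about 5% of independent values. The gene sums share counts with their own peaks, and the share over all peaks was not computed, so nothing is read from this share. Lymphoma 9 was lowest at Nfkb1 peak 5 (-0.359) and at Nfkb1 peak 7 (-0.359), having no count at either, and its 1040523 counts in peaks made it the shallowest lymphoma after lymphoma 8. Lymphoma 2 was lowest at Nfkb2 peak 2 (4.17), at Rela peak 3 (3.28), and in the sums of Nfkb2 (5.75) and Rela (4.73), all on chromosome 19, which took 0.790 times its normal share of counts in that library. That share was smaller still in lymphomas 9 and 5, at 0.609 and 0.762 times, which were not the lowest at any of these values. Lymphoma 8 was highest at the Rel promoter, peak 3 (6.74), also had the most open Nfkb1 promoter, and was the shallowest lymphoma with 670358 counts. The part of depth and of chromosome share in these values was not tested.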

How the results depend on the processing

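The 3' UTR peak of Nfkb1 kept its call in NK over T cells in all alternatives, and its log2 fold change of lymphomas over NKT cells ran from 5.61 to 6.57 in the alternatives and from 5.73 to 6.28 on leaving out each library. Leaving out each library gave 2 to 4 member peaks called in lymphomas against T cells (2 without T 1 or T 2), 2 to 4 against NK cells, 1 to 3 in NK against T, 3 to 7 in NK against NKT and 0 to 3 in NKT against T cells (0 without NKT 2). The same gave 0 genes in lymphomas against T, NK against NKT and NKT against T cells, 1 to 2 in lymphomas against NK and 0 to 2 in NK against T cells. Pathway genes called ran from 14 to 29 against T cells (14 without T 1, 17 without T 2) and from 6 to 26 against NK cells (6 without NK 3, 10 without NK 2). The smaller peak table changed the counts to 14 pathway genes against T cells (26 in the larger table), 1 subunit gene in lymphomas against T (Rel), 2 in lymphomas against NK, 1 in NK against NKT, and 3, 4 and 1 peaks in NK against NKT, NK against T and NKT against T cells. TMM within chromosomes left 9 pathway genes against NK cells in place of 21 and called 2 subunit genes in lymphomas against NK and 2 in NK against NKT cells, and it turned Map3k14 over NK cells to -0.461 and Sharpin over T cells to -0.149. A mean count of at least 20 left 2 peaks in lymphomas against T, 3 in NK against NKT and 1 in NKT against T cells, the last also under RLE and library totals (1 each). DESeq2 called 4 peaks and 2 genes in NK against T and 2 genes in NK against NKT cells. Fits of only the 2 groups called 5 peaks and 2 genes in NK against T, 2 genes in NK against NKT and 6 peaks in NKT against T cells. Same-numbered normal libraries did not visibly deviate together (r from -0.0369 to 0.0465 over 9 pairs). Counting noise in weak peaks could hide a shared deviation, so pairing by number is not excluded. The replicate block in the 9 normal libraries called 4 peaks and 3 genes in NK against T and 2 genes in NK against NKT cells. The same 9 libraries without it called 6 peaks and 3 genes in NK against T, 3 genes in NK against NKT and 4 peaks in NKT against T cells. The causes were not tested. Of 3924 single values with 1 library left out, 91 lost and 17 gained a call, and 3816 kept their side of the threshold, of which 142, called neither before nor after, changed sign. Depth limited weak peaks most in NK cells, where 8 of 96 member values were 0.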
